A study of Mus musculus with 10 samples.

Results

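Fatty acid uptake and oxidation was followed through 41 genes in the right atrium of adult mice. The genes were listed by name, with earlier results of these data known, and were found by symbol among the 23337 genes of the deposited table. All 41 passed the filter on low counts and were tested, among 13084 tested genes. The series holds right atrial RNA-seq of 4 mice labelled control (M1, M2, F1 and F2) and 6 mice labelled Tbx5 mutant (F1 to F3 and M1 to M3), with 1 library per mouse. Exon 3 of Tbx5 was deleted in the mutant mice by tamoxifen-dependent Cre expressed from R26, a promoter active in nearly all cell types. The protocol attached to every library gives 0.167 mg of tamoxifen per day for 3 days and tissue collection 1 week later. The genotype of the control mice is labelled only as control, so that the alleles they carry are not given in the labels. The strain is labelled mix, and the labels give ages of both 8 to 10 and 6 to 8 weeks.

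The adult heart takes most of its energy from long-chain fatty acids. Lipoprotein lipase on the capillary wall frees them from circulating triglyceride, CD36 and fatty acid transport proteins carry them across membranes, and fatty acid binding proteins hold them inside the cell. Acyl-CoA synthetases activate them, the carnitine shuttle brings them into mitochondria, and the beta-oxidation spiral shortens them in repeated rounds of dehydrogenation, hydration, dehydrogenation and thiolysis. The nuclear receptors PPAR alpha and ERR alpha, with the coactivator PGC-1 alpha, are known regulators of many of these genes.

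The libraries held between 5703775 and 7095141 counts. Rn45s, the ribosomal RNA precursor, took 38.9% of the counts in mutant M3 and 0.268% to 1.49% in the other 9 libraries. Levels are counts scaled to the library size (CPM, with the SD over libraries). Tbx5 stood at 205 ± 17.8 CPM (n = 4) under the control label and at 394 ± 83.3 CPM (n = 6) under the mutant label, which goes against the label (log2 fold change 0.94, SE 0.15, adjusted p = 0.000495). Reads were counted per gene, so that transcripts that lack exon 3 add to this count. Directions are therefore given by label throughout, and "mutant" stands for the libraries labelled Tbx5 mutant. The labelled sex of the 4 control mice went against sex-linked genes. Xist was at 1299 and 1450.1 CPM in the control mice labelled M and at 0.784 and 1.89 CPM in those labelled F, whereas the mutant mice matched their labels. The atrial identity of the tissue was seen in Nppa, at 24272 to 28083 CPM in control and 10172 to 23674 CPM in mutant libraries. All 5 atrial markers fell (Nppa, Myl4, Myl7, Sln and Bmp10). The 3 ventricular markers summed to 7.86 to 11.8 CPM in control and 9.6 to 38.2 CPM in mutant libraries. Of these, Myl2 rose (log2 fold change 2.1, adjusted p = 0.00156), Hey2 did not pass the test, and Irx4 reached no more than 0.158 CPM.

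Below, a gene rose or fell where its Benjamini-Hochberg adjusted p over all tested genes was under 0.05 in edgeR's quasi-likelihood test. It was called where, in addition, the fold change was over 1.5 and the mean deposited signal in the control mice was over 1. Lpl, Fabp4, Fabp5 and Acadvl were called higher, which are 9.76% of the 41 genes beside 8.5% of all tested genes. Ppargc1a was the only gene of the 41 called lower, 2.44% beside 7.16% of all tested genes, of which 15.7% were called in either direction. By adjusted p alone, 14 genes rose and 3 fell (Slc27a1, Ucp2 and Ppargc1a). The 14 make up 34.1% of the genes beside 16.3% of all tested genes, and the 3 make up 7.32% beside 15.0%, with 31.3% of all tested genes past the adjusted p in either direction. In 11 genes every mutant library lay above every control library, 26.8% beside 11.7% of all tested genes, and in 2 (Ucp2 and Ppargc1a) every mutant library lay below, 4.88% beside 11.0%. Over all tested genes 22.7% had groups that did not overlap. The median log2 fold change was 0.27 over the 41 genes and -0.005 over all tested genes. Together the 41 genes took 0.87% to 1.03% of the counts outside Rn45s in the control libraries and 1.15% to 1.39% in the mutant libraries, so that the groups did not overlap. Genes with many counts weigh most in this share. Among them, Lpl was at 1538 ± 316 CPM (SD, n = 4) in control and 2504 ± 102 CPM (SD, n = 6) in mutant libraries. Cd36 was at 973 ± 23.1 and 957 ± 149 CPM (SD, n = 4 and 6).

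**Figure D1:**
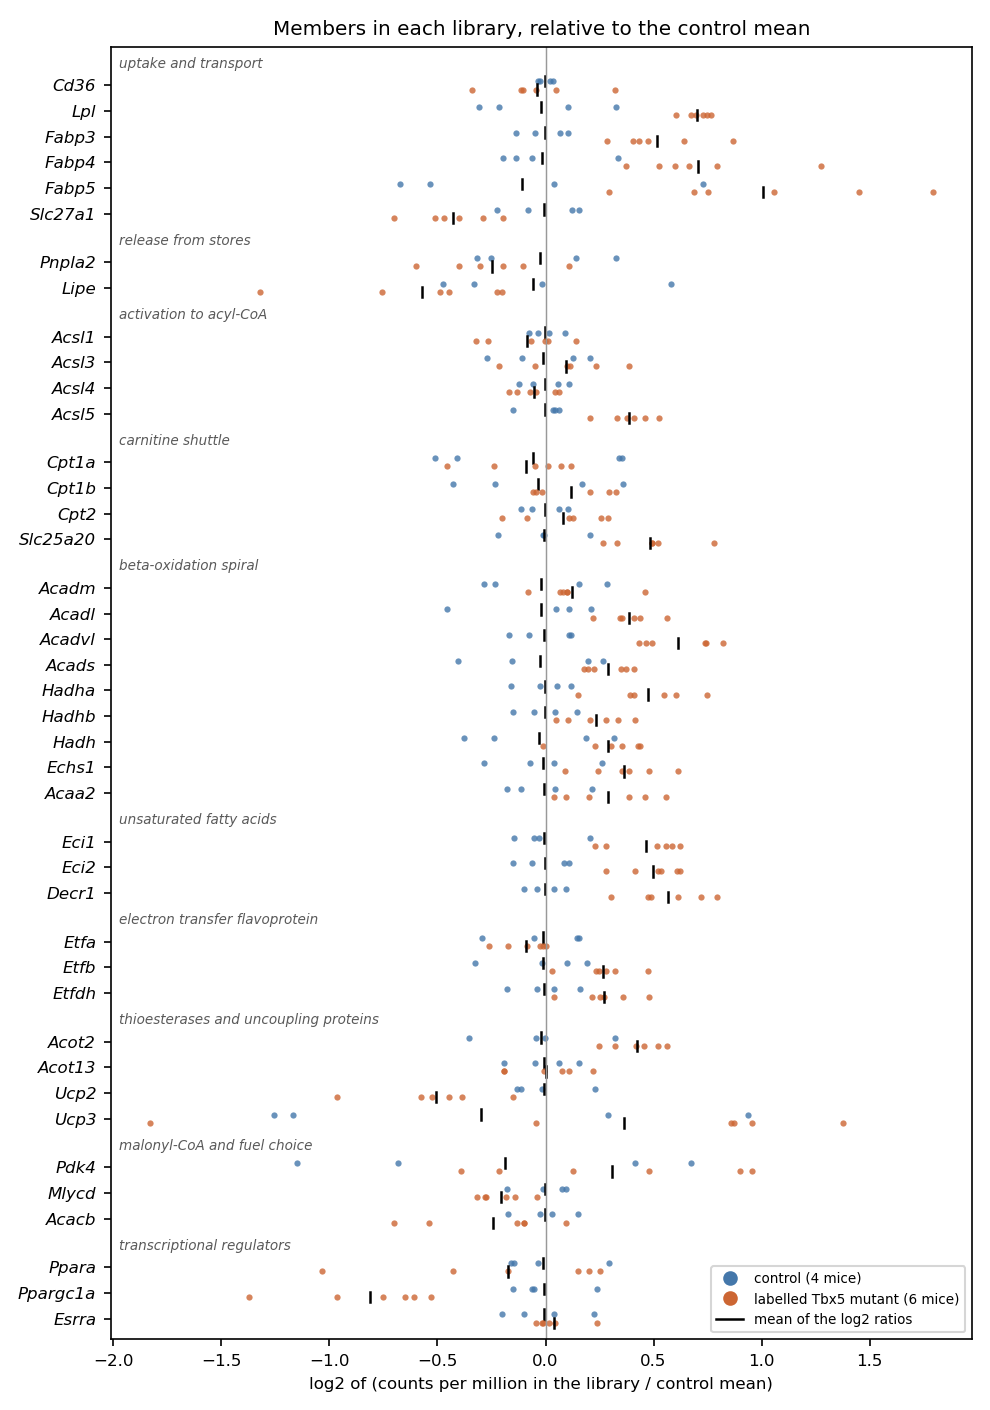
Each point is 1 library, drawn as the log2 of its level in CPM (counts scaled to the library size) over the mean of the 4 control libraries, for the 41 genes grouped by role. Black bars are the means of the log2 ratios. Mutant points of Lpl and of the 3 genes for unsaturated fatty acids lie wholly to the right of the control points, those of Ppargc1a wholly to the left, and Ucp3 and Pdk4 spread widely in both groups.

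Among the 6 genes of uptake and transport, 4 rose, 1 fell and 1 did not pass the test. Lpl, which encodes lipoprotein lipase, was at 1655, 1929.6, 1242 and 1324 CPM in control M1, M2, F1 and F2. The mutant libraries ran from 2336 through a median of 2519 to 2615 CPM. All 6 lay above all 4 control libraries and were closer to one another than the control libraries were. The log2 fold change of Lpl was 0.70 (SE 0.13, adjusted p = 0.00156). Lpl lies on chromosome 8 from 68880491 to 68907448 on the forward strand of GRCm38.

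Fabp4 encodes a fatty acid binding protein known from adipocytes and capillary endothelium. It was at 145, 191, 132 and 138 CPM in control M1, M2, F1 and F2 and at 196 to 367 CPM, with a median of 235 CPM, in the mutant libraries. The highest value was that of mutant M2, and the groups did not overlap (log2 fold change 0.73, SE 0.16, adjusted p = 0.00442). Fabp5, a related binding protein, was at 11.3, 18.2, 6.9 and 7.58 CPM in the control libraries in the same order, and at 13.5 to 38.1 CPM with a median of 20.7 CPM in the mutant libraries. Here the groups overlapped, control M2 lying above mutant F1 and F3. The log2 fold change of Fabp5 was 1.10 (SE 0.31, adjusted p = 0.016), the largest of the 41 genes, and its adjusted p was 0.0555 without control F1 and 0.0511 without control F2. Fabp4 and Fabp5 both lie on chromosome 3, Fabp4 from 10204088 to 10208576 on the reverse strand and Fabp5 from 10012548 to 10016607 on the forward strand.

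Fabp3, the binding protein of heart muscle, was at 233, 259, 219 and 252 CPM in control M1, M2, F1 and F2. In the mutant libraries it was at 293 to 439 CPM with a median of 329.7 CPM, above every control library. Its log2 fold change was 0.53 (SE 0.12, adjusted p = 0.00398), which is under the fold limit. Of the 50-base stretches of its longest transcript, 37.3% also occur in other annotated genes, most of them in the pseudogene Fabp3-ps1, so that its counts are less certain than those of Fabp4, which shares none. Slc27a1, fatty acid transport protein 1, fell by 0.42 on the log2 scale (SE 0.11, adjusted p = 0.0102), from 121 ± 15.0 CPM (SD, n = 4) to 90.1 ± 10.9 CPM (SD, n = 6). Cd36, the main fatty acid translocase of heart muscle, was at 950.3, 997, 988 and 957 CPM in control M1, M2, F1 and F2 and at 769 to 1215 CPM, with a median of 925 CPM, in the mutant libraries. The control values lay inside the range of the mutant values. Its log2 fold change was -0.025 (95% interval -0.28 to 0.23).

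Several of these genes are also expressed outside cardiomyocytes, and some markers of other cell types moved beside them. In bulk tissue, more cells of a type and more RNA per cell cannot be told apart. The 6 adipocyte markers summed to 0.627 to 16.0 CPM in control and 0.817 to 70.0 CPM in mutant libraries. Adipoq, an adipocyte hormone, was at 0 in the lowest library of each group and reached 9.03 CPM, and Plin1 and Cidec reached 4.51 and 6.84 CPM. Control M2 and mutant M2 held the most of these reads. Without both libraries the log2 fold change was 0.84 for Lpl, 0.73 for Fabp4 and 1.35 for Fabp5, with adjusted p = 0.00142, 0.00081 and 0.00934. The libraries that were kept still held adipocyte markers, at 0.627 to 2.44 CPM in control and 0.817 to 8.06 CPM in mutant libraries. Leaving out these libraries therefore cannot settle the part of adipocytes. Of the 3 brown adipocyte markers, Ucp1 and Elovl3 stayed at or under 0.836 and 0.133 CPM, while Cidea, at 7.72 to 10.6 CPM in control and 14.0 to 22.3 CPM in mutant libraries, rose (log2 fold change 1.02, adjusted p = 0.000272). The 10 endothelial markers summed to 2170.1 to 3299 CPM in control and 3111 to 4014 CPM in mutant libraries. Much of this sum was Vwf, at 872 to 1543 CPM in control and 1638 to 2453 CPM in mutant libraries. Of the 10 markers, 3 rose (Vwf, Emcn and Egfl7). Pecam1, Cdh5, Kdr, Tie1, Tek, Flt1 and Cldn5 did not pass the test, and the median log2 fold change of the 10 was 0.058. Of 8 macrophage markers 7 rose, and their sum was 434 to 548 CPM in control and 629.6 to 921 CPM in mutant libraries. Of 6 fibroblast markers, 2 rose and 1 fell. The part of adipocytes, brown adipocytes, endothelial cells, macrophages and fibroblasts in the results for Lpl, Fabp4 and Fabp5 was not tested.

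**Figure D2:**
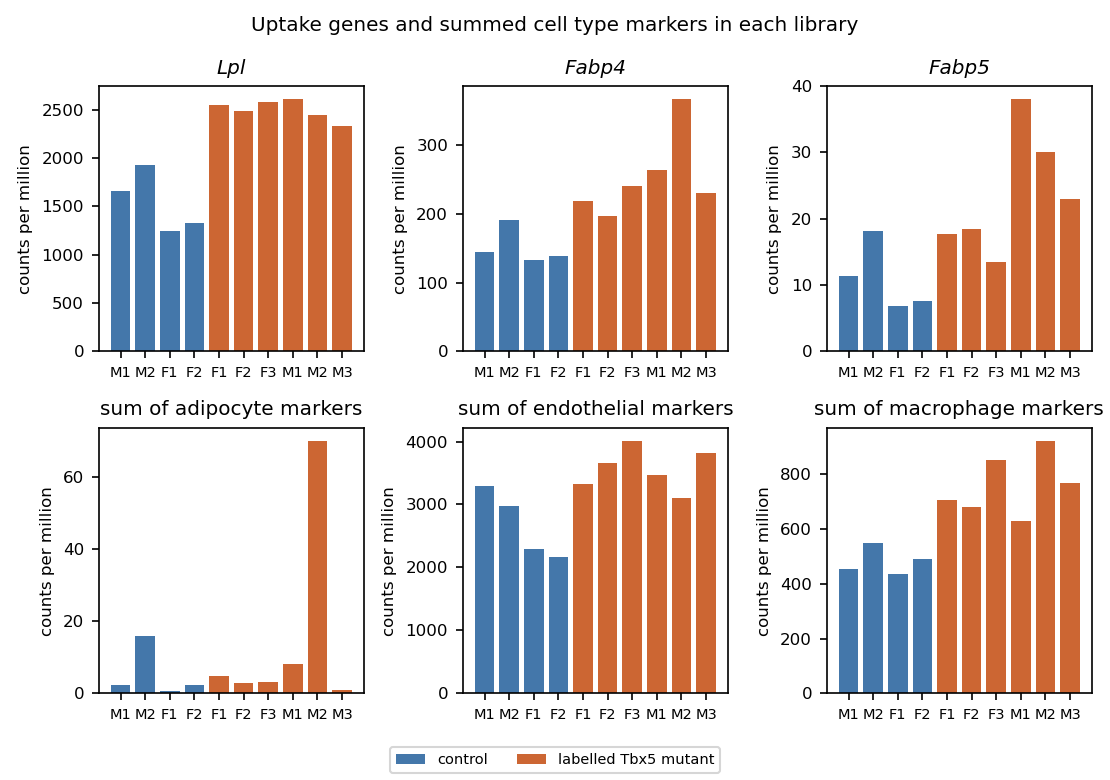
Bars are CPM in each of the 10 libraries for Lpl, Fabp4 and Fabp5 (top) and for the summed adipocyte, endothelial and macrophage markers (bottom). Mutant M2 stands at 70.0 CPM of adipocyte markers and has the highest Fabp4 of the 10 libraries, while Lpl lies between 2336 and 2615 CPM in all 6 mutant libraries.

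Neither gene of release from stored triglyceride passed the test. Pnpla2, adipose triglyceride lipase, had a log2 fold change of -0.23 (95% interval -0.55 to 0.085), and Lipe, hormone-sensitive lipase, one of -0.51 (95% interval -0.97 to -0.053, adjusted p = 0.0834). Among the 4 long-chain acyl-CoA synthetases, Acsl5 rose from 39.0 ± 2.6 CPM (SD, n = 4) to 51.0 ± 3.87 CPM (SD, n = 6), with a log2 fold change of 0.39 and every mutant library above every control library. Acsl1, the synthetase with the highest level per length here, had a log2 fold change of -0.077 (95% interval -0.30 to 0.15), and Acsl3 and Acsl4 had 0.10 and -0.049.

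In the carnitine shuttle, Slc25a20, the carrier that exchanges acylcarnitine for carnitine across the inner mitochondrial membrane, rose from 64.0 ± 7.72 CPM (SD, n = 4) to 90.0 ± 11.5 CPM (SD, n = 6), with a log2 fold change of 0.49 (SE 0.11, adjusted p = 0.00471) and groups that did not overlap. Cpt1a, the form of carnitine palmitoyltransferase 1 known from liver, was at 119 and 120.3 CPM in control M1 and M2 and at 66.0 and 70.7 CPM in control F1 and F2. The 6 mutant libraries lay between these pairs, from 68.6 through a median of 92.8 to 102 CPM, apart from their lowest, which lay between the values of control F1 and F2. Its log2 fold change was -0.074 (95% interval -0.45 to 0.30). Cpt1b, the muscle form, was at 9.29, 8.11, 14.0 and 12.3 CPM in control M1, M2, F1 and F2, and at 10.5 to 13.7 CPM in the mutant libraries with a median of 11.7 CPM. Its log2 fold change was 0.13 (95% interval -0.22 to 0.47). Since 93.0% of the 50-base stretches of its longest transcript also belong to the readthrough gene Gm44502, reads of Cpt1b can be lost to counting, and its level is uncertain. Cpt2, the enzyme of the inner membrane that re-forms acyl-CoA, was at 72.0, 69.5, 78.4 and 80.7 CPM in the control libraries in the same order and at 65.3 to 91.7 CPM, with a median of 81.5 CPM, in the mutant libraries. Its groups overlapped, and its log2 fold change was 0.091 (95% interval -0.13 to 0.31).

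All 9 genes of the beta-oxidation spiral had a fold change above 0 on the log2 scale, between 0.13 and 0.62 with a median of 0.30, and 4 of them rose (Acadvl, Acadl, Hadha and Echs1). With a sex term and control sex labels exchanged, Acads, Hadhb and Acaa2 also rose (adjusted p = 0.0175, 0.0267 and 0.0181). With sex as labelled they did not pass. Acadvl encodes very long-chain acyl-CoA dehydrogenase, which takes the first step for long chains. It was at 399, 426, 486 and 483 CPM in control M1, M2, F1 and F2, and at 605 through a median of 689.9 to 792 CPM in the mutant libraries. Every mutant library lay above every control library, and the log2 fold change was 0.62 (SE 0.11, adjusted p = 0.00112). Without control M1 or without mutant M3 its log2 fold change was 0.58, just under the fold limit, with adjusted p = 0.00522 and 0.00235. Of the stretches of its longest transcript, 24.0% are shared with Dvl2, which overlaps it on the opposite strand, and whether strand was used in counting is not given in the sources used here. Because Acadvl was the only enzyme of the spiral called higher, its upstream sequence is shown, from RefSeq on GRCm38.p6, 250 bases at chr11:70015429-70015678 on the reverse strand, with its 9 CpG sites in capitals.
Acadvl: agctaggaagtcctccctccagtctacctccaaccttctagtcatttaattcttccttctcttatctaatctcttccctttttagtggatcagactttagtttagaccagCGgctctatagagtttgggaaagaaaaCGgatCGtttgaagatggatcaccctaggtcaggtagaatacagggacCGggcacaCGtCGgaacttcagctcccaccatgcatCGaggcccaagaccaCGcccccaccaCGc

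The dehydrogenases of shorter chains did not pass alike. Acadl, for long chains, rose with a log2 fold change of 0.39 (SE 0.12, adjusted p = 0.0275), but its adjusted p was 0.066 without control M1. Acadm, for medium chains, was at 266 and 257 CPM in control M1 and M2 and at 381 and 348 CPM in control F1 and F2. The mutant libraries had 296 to 431 CPM with a median of 333 CPM, and the groups overlapped. Its log2 fold change was 0.13 (95% interval -0.16 to 0.42). Acads, for short chains, had 0.29 (95% interval 0.029 to 0.55, adjusted p = 0.0839).

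Hadha and Hadhb encode the alpha and beta subunits of the mitochondrial trifunctional protein, which carries out the later steps for long chains. Hadha was at 485, 532, 588 and 562 CPM in control M1, M2, F1 and F2 and at 600.5 to 909 CPM, with a median of 755 CPM, in the mutant libraries. It rose with a log2 fold change of 0.49 (SE 0.12, adjusted p = 0.00808), and the groups did not overlap. Hadhb was at 72.9 ± 6.54 CPM (SD, n = 4) in control and 86.0 ± 8.28 CPM (SD, n = 6) in mutant libraries, with a log2 fold change of 0.24 (95% interval 0.034 to 0.44, adjusted p = 0.0703). The 2 genes point away from each other on chromosome 5, and 85 bases lie between their GENCODE starts, at 30155162 on the reverse and 30155248 on the forward strand. Between their RefSeq starts, at 30154980 and 30155253, lie 272 bases. All 85 bases lie between the 2 starts in both annotations. The 68 of them that fall in the RefSeq promoter of Hadha, chr5:30155163-30155230 on GRCm38, are shown on the forward strand. The 7 CpG sites are in capitals.
Hadha and Hadhb: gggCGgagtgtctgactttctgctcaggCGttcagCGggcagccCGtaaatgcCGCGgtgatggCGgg

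Of the other enzymes of the spiral, Echs1, the short-chain enoyl-CoA hydratase, rose from 190 ± 30.1 to 246 ± 30.7 CPM (SD, n = 4 and 6), with a log2 fold change of 0.37 (adjusted p = 0.0329). Its place past the threshold rested on single libraries, since adjusted p was 0.102 without control M1, 0.0805 without control M2, 0.0633 without control F1, 0.0537 without mutant M2 and 0.0678 without mutant M3. Hadh, the hydroxyacyl-CoA dehydrogenase of shorter chains, and Acaa2, the mitochondrial thiolase, both had a log2 fold change of 0.30, with adjusted p = 0.115 and 0.0817.

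The 3 enzymes listed here as preparing unsaturated fatty acids for the spiral all rose. In each of these 3, every mutant library lay above every control library. The list need not hold every enzyme of this step. Decr1, the dienoyl-CoA reductase, rose from 192 ± 11.5 to 286 ± 35.3 CPM (SD, n = 4 and 6), a log2 fold change of 0.57 (SE 0.10, adjusted p = 0.00111) just under the fold limit. The enoyl-CoA isomerases Eci1 and Eci2 had log2 fold changes of 0.47 and 0.50, with adjusted p = 0.004 and 0.00117. None of the 3 genes of the electron transfer flavoprotein and its oxidoreductase, which pass electrons of the dehydrogenases to the respiratory chain, passed the test. Etfdh and Etfb both had a log2 fold change of 0.27, with adjusted p = 0.0575 and 0.083, and Etfa had -0.086 (95% interval -0.30 to 0.13). Etfb shares 67.3% of the stretches of its longest transcript with the overlapping gene Gm45233, which makes its level uncertain.

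Cardiomyocyte markers moved in part beside these enzymes. Of 8 cardiomyocyte markers 5 rose, among them Tnnt2 with a log2 fold change of 1.12, while Myh6 (0.099) and Tnni3 (0.034) did not pass the test. The summed level was 96337 to 151558 CPM in control and 67236 to 135514 CPM in mutant libraries. Ttn alone was at 63169 to 106625 CPM in control and 27143 to 90195 CPM in mutant libraries and did not pass the test (adjusted p = 0.146). The part of these markers in the results for oxidation enzymes was not tested.

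**Figure D3:**
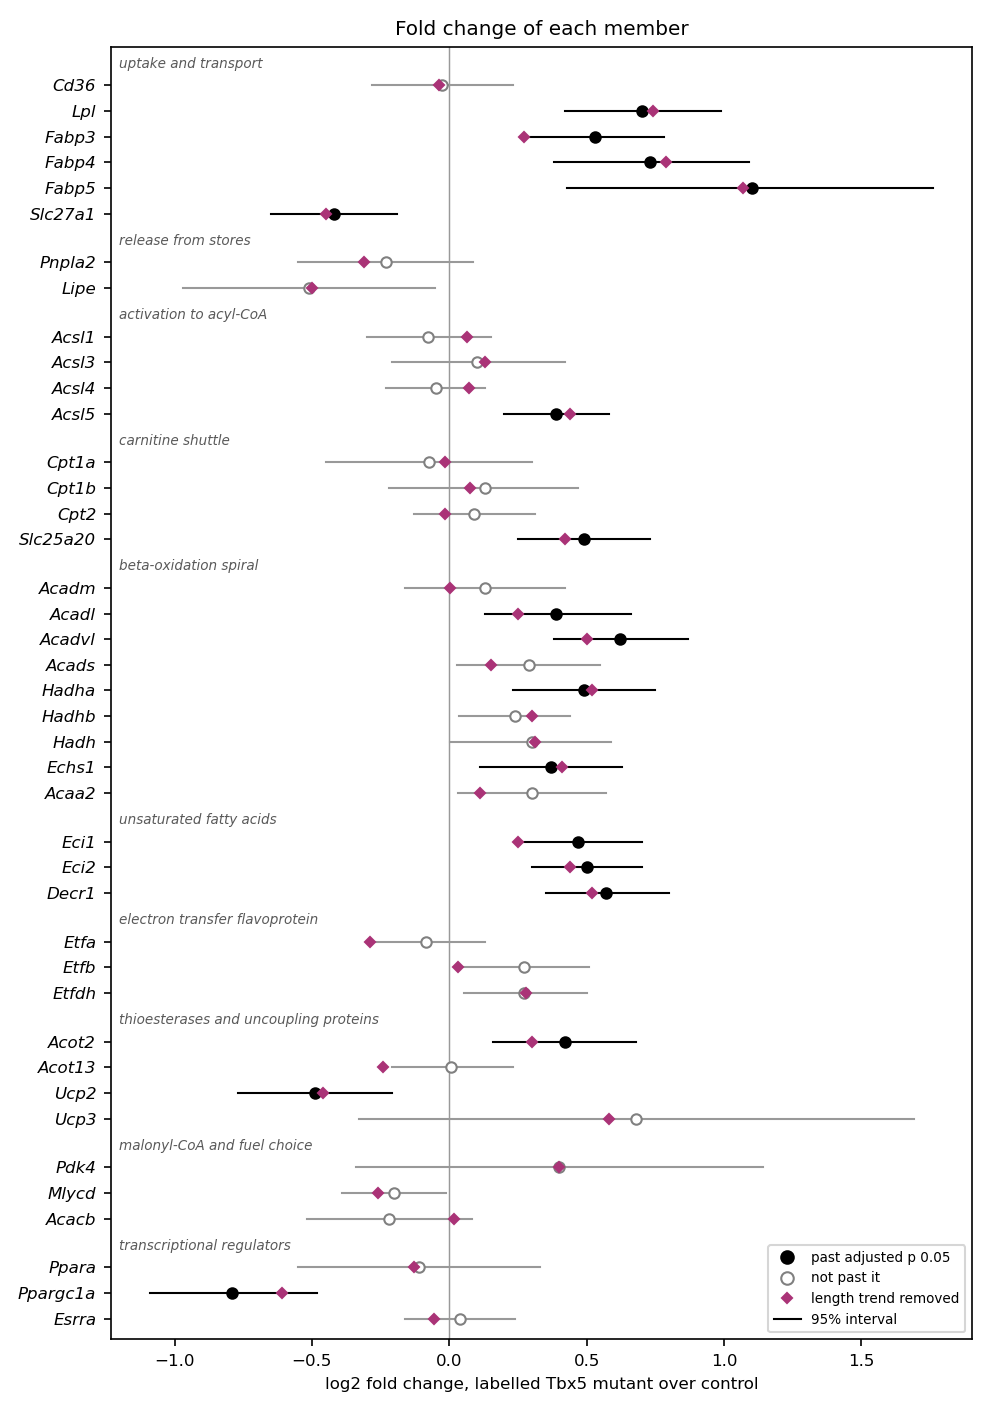
Points are log2 fold changes of mutant over control libraries for the 41 genes with 95% intervals, filled where adjusted p was under 0.05. Diamonds are the values after the trend of each library on transcript length was removed. This brought Fabp3 from 0.53 to 0.27 and Lpl from 0.70 to 0.74.

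Across all tested genes with an annotated length, the log2 fold change was lower for longer transcripts (Spearman rho -0.314 over 11868 genes, given as a description, since genes share the same 10 libraries). Once the trend of each library was removed, 13 of the 41 genes rose and 6 fell, beside 14.7% and 13.0% of all tested genes, and the median log2 fold change of the 41 genes was 0.13. Eci1, Acadl and Acot2 no longer passed (adjusted p = 0.0559, 0.112 and 0.0808). Hadhb and Etfdh then rose, with 0.30 and 0.28, and Etfa, Acot13 and Mlycd then fell, by 0.29, 0.24 and 0.26. The length used was that of the longest annotated transcript, 4388 bases for Hadhb and 3740 bases for Etfdh. Their principal transcripts have 2048 and 2377 bases. How far the results depend on the length chosen was not tested. The log2 fold change of Ppargc1a became -0.61 and that of Acadvl became 0.50, which is under the fold limit.

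Among thioesterases, which release free fatty acid from acyl-CoA, Acot2 rose with a log2 fold change of 0.42 (SE 0.12, adjusted p = 0.017), but its adjusted p was 0.0595 without control F1. It shares 24.5% of its stretches with its close relative Acot1. Acot13 had a log2 fold change of 0.0077 (95% interval -0.21 to 0.23). The uncoupling proteins Ucp2 and Ucp3 are mitochondrial carriers whose genes lie next to each other on chromosome 7, 6.9 kb apart on the forward strand. Ucp2 fell by 0.49 on the log2 scale (SE 0.13, adjusted p = 0.0123) from 157 ± 18.9 to 112 ± 19.8 CPM (SD, n = 4 and 6), with every mutant library below every control library, and its adjusted p was 0.052 without control M2. Ucp3 was at 22.3, 14.2, 5.17 and 4.87 CPM in control M1, M2, F1 and F2 and at 3.27 to 30.2 CPM with a median of 21.2 CPM in the mutant libraries. Its lowest value was that of mutant M3. The log2 fold change was 0.68, with a 95% interval from -0.33 to 1.69 (adjusted p = 0.288).

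Pdk4, the kinase that switches off pyruvate dehydrogenase and so the use of glucose, was at 1143 and 958 CPM in control M1 and M2 and at 323 and 447 CPM in control F1 and F2. In the mutant libraries it was at 548 to 1390.1 CPM with a median of 892 CPM. The control pairs lay apart by more than the groups did, and the log2 fold change of 0.40 had a 95% interval from -0.34 to 1.14 (adjusted p = 0.403). Acacb, which makes the malonyl-CoA that blocks the carnitine shuttle, had a log2 fold change of -0.22 (95% interval -0.52 to 0.084). Mlycd, which removes malonyl-CoA, had -0.20 (95% interval -0.39 to -0.013, adjusted p = 0.0951).

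Of the 3 regulators, Ppargc1a fell. It encodes PGC-1 alpha, a coactivator of mitochondrial and fatty acid genes. It was at 143, 152, 153 and 187 CPM in control M1, M2, F1 and F2, and at 61.3 to 110 CPM with a median of 97.6 CPM in the mutant libraries. All 6 mutant libraries lay below all 4 control libraries, and the log2 fold change was -0.79 (SE 0.14, adjusted p = 0.00103). It stayed between -0.61 and -0.84 in every alternative run and passed the test in each. Ppara, the fatty acid receptor PPAR alpha, was at 92.6, 84.7, 85.6 and 116 CPM in control M1, M2, F1 and F2. The mutant libraries had 46.2 to 113 CPM with a median of 94.4 CPM, the lowest being mutant M2. Its log2 fold change was -0.11 (95% interval -0.55 to 0.33). Esrra, the receptor ERR alpha, was at 78.2, 83.9, 92.3 and 105 CPM in the control libraries in the same order and at 87.1 to 106 CPM, with a median of 90.1 CPM, in the mutant libraries. Its groups overlapped, and its log2 fold change was 0.039 (95% interval -0.16 to 0.24). As Ppargc1a was the only gene called lower, the 249 bases before its GENCODE start at 51567726 are shown as RefSeq gives them, at chr5:51567727-51567975 on the reverse strand of GRCm38, with 5 CpG sites in capitals.
Ppargc1a: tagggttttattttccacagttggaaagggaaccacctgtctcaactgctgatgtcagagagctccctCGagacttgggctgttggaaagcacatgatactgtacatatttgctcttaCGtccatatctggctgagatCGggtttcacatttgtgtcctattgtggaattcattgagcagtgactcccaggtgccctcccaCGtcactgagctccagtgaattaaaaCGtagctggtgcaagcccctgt

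RefSeq promoters, from 250 bases before to 50 after the start, were matched for 34 of the 41 genes (38 promoters), and Lpl, Fabp4 and Fabp5 were not among them. They were searched on both strands for 3 strings. A direct repeat of AGGTCA with 1 base between its copies, of the type that PPAR receptors bind, TCAAGGTCA, of the type that ERR receptors bind, and AGGTGTGA, of the type that T-box factors bind, were found in none of the 38 promoters. Among 32851 mouse promoters of the same length, 0.0396%, 0.423% and 1.28% held them. No match says only that these letters are not in this window.

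In most of the 41 genes the 4 control libraries fell into pairs by labelled sex that did not overlap. How often this occurs over all tested genes was not counted. Cpt1a and Pdk4 were higher in control M1 and M2, and every gene of the spiral was lower there, Acadm, Acads and Hadh among them. For the spiral, the mean of M1 and M2 over that of F1 and F2 ran from 0.679 (Hadh) to 0.884 (Hadha). The range over the 4 control libraries was more than 2-fold in 4 of the 41 genes (Fabp5, Ucp3, Pdk4 and Lipe) and over the mutant libraries in 5 (the same 4 and Ppara). An interaction of labelled genotype and labelled sex was tested in edgeR over all genes. None of the 41 genes passed (lowest adjusted p = 0.0975, Acads), beside 0.29% of all tested genes. None of them passed by limma either, for which the share of all tested genes was not counted. At an unadjusted p under 0.05 there were 17 genes beside 10.4% of all tested genes, 8 of them of the spiral. For 14 of the 17 the difference of mutant from control was higher in mice labelled M than in mice labelled F, beside 5.5% of all tested genes, and for 3 (Lpl, Cpt1a and Ucp3) it was lower, beside 4.93%. All these values rest on 2 control libraries per labelled sex, whose labels go against Xist. With the sex labels of the control mice exchanged, none of the 41 passed, beside 0.00764% of all tested genes, and 14 had an unadjusted p under 0.05, beside 9.09% of all tested genes. These 14 need not be the same genes as before. Over the spiral, the log2 interaction (M minus F) ran from 0.28 (Acadl) to 0.69 (Acads) as labelled. After the exchange it ran from -0.48 (Hadh) to 0.14 (Hadha), so that the pattern of the spiral depended on the labels used.

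**Figure D4:**
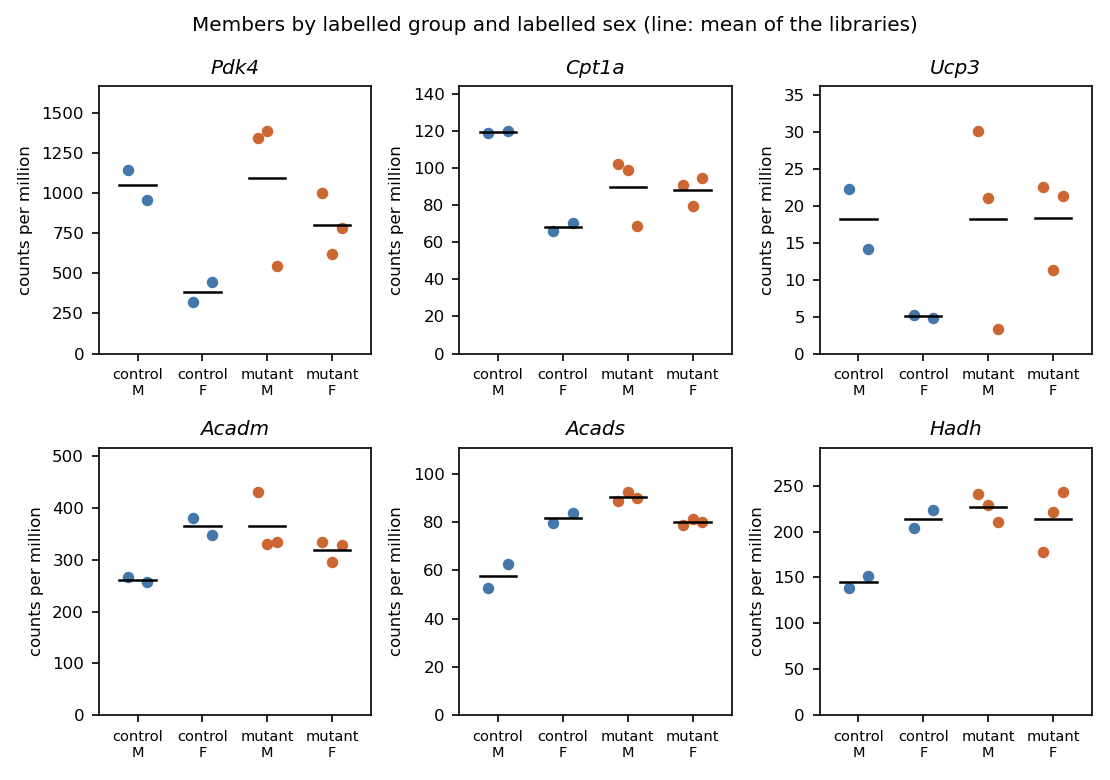
Points are CPM of 6 genes in each library, by labelled group and labelled sex, with a line at the mean. Control M1 and M2 are high in Pdk4, Cpt1a and Ucp3 and low in Acadm, Acads and Hadh, whereas the mutant libraries of both labelled sexes overlap in all of these genes but Acads.

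Levels of different genes were compared as CPM per kilobase of the longest annotated transcript. In the control libraries Lpl stood highest with 374 ± 76.9 CPM per kb (SD, n = 4), then Acaa2 with 327 ± 40.0, Fabp3 with 293 ± 21.9, Cd36 with 286 ± 6.8 and Etfb with 247 ± 36.5. Of the 40 pairs of neighbours in this order, 39 had control libraries that overlapped, and only between Hadha and Acsl1 did the libraries lie apart. Acsl3 stood lowest with 2.48 ± 0.371, below Fabp5 with 3.39 ± 1.6, Cpt1b with 3.77 ± 0.93 and Ucp3 with 4.76 ± 3.4. In the mutant libraries Lpl was at 608 ± 24.8 CPM per kb and Fabp3 at 422 ± 63.4 (SD, n = 6). Hadha, at 135 ± 11.0 CPM per kb in the control libraries, stood above Hadhb at 16.6 ± 1.49, and with the length of the principal transcript Hadhb stood at 35.6. The place of Lpl depended on the length used, since with merged exons it came ninth, at 147 CPM per kb, and Fabp4 moved from 35.8 to 169 CPM per kb with its principal transcript.

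**Figure D5:**
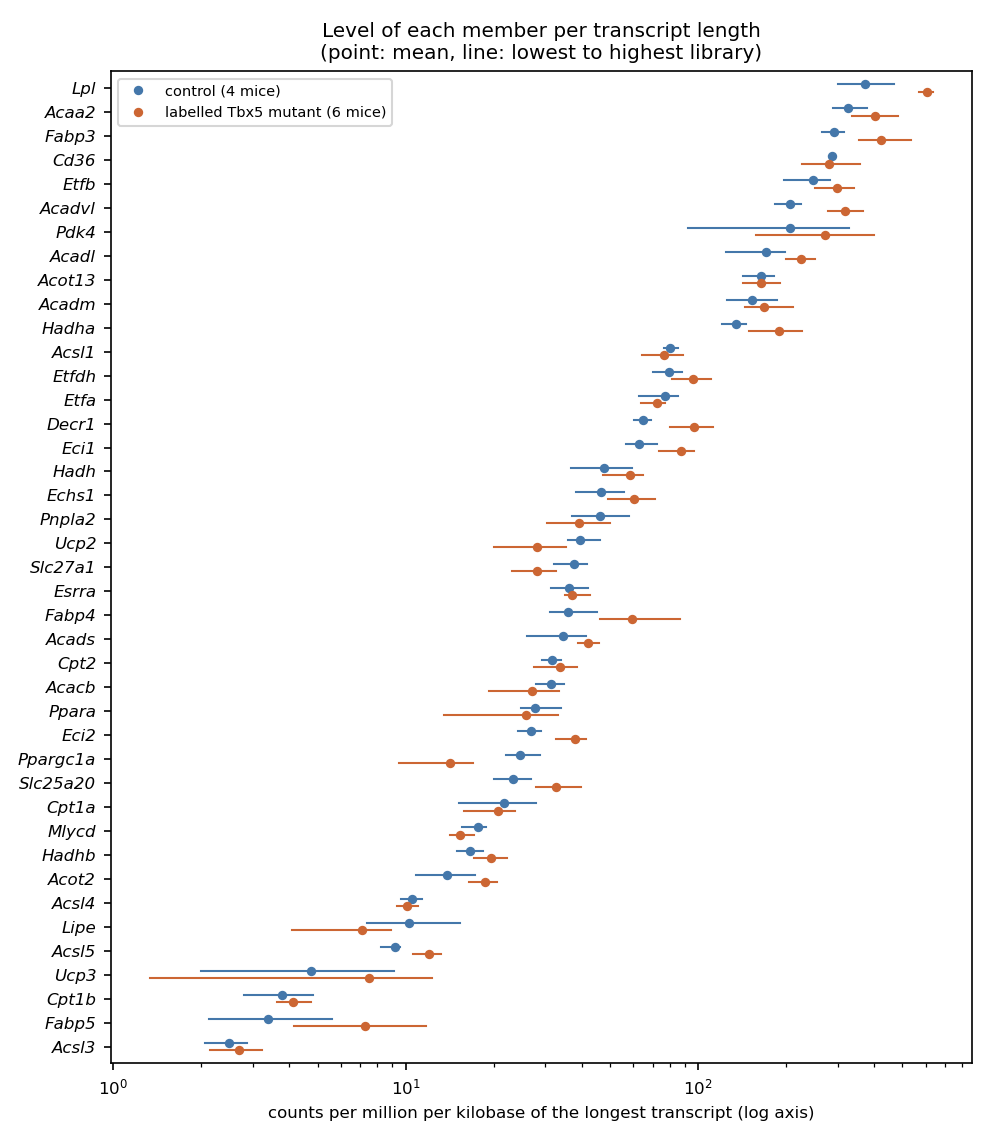
Points are mean levels in CPM per kilobase on a log axis, with lines from the lowest to the highest library, for control and mutant mice. Levels run from 374 for Lpl to 2.48 for Acsl3 in the control libraries, and for Lpl and Ppargc1a the lines of the groups do not meet.

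Around the 41 genes, 102 further genes of fatty acid handling were listed, of which 99 were tested. There, 9 were called lower and 6 higher, 9.09% and 6.06% beside 7.16% and 8.5% of all tested genes. By adjusted p alone 14 fell and 15 rose, 14.1% and 15.2% beside 15.0% and 16.3%, and the median log2 fold change was 0.02. These shares lie near those of all tested genes. The largest falls were those of Vldlr, the very low density lipoprotein receptor (-1.16, adjusted p = 0.000471), Lpin1, a phosphatidate phosphatase of triglyceride synthesis (-1.06), Prkag2, a regulatory subunit of the AMP-activated kinase (-1.04), Fitm1, a protein of lipid droplet formation (-0.99), Prkaa2, a catalytic subunit of the AMP-activated kinase (-0.75), and Esrrg, the receptor ERR gamma (-0.73). All these are log2 fold changes. Vldlr went from 634 ± 71.1 to 284 ± 84.3 CPM (SD, n = 4 and 6). The largest rises were those of Bdh1, an enzyme of ketone body use (2.64, adjusted p = 8.65e-05), Angptl4, a secreted inhibitor of lipoprotein lipase (1.44, adjusted p = 0.0259), Cidea, a lipid droplet protein (1.02), the receptor Pparg (0.81), Oxct1, the enzyme that activates ketone bodies (0.61), and Hsd17b10 (0.60), again on the log2 scale. Angptl4 ranged from 2.98 to 12.4 CPM in control and from 9.8 to 45.1 CPM in mutant libraries, so that the groups overlapped.

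Of all tested genes 15.0% fell and 16.3% rose, and counts in lists this small are a description. By list, 2 of 4 ketone body genes were called (Bdh1 and Oxct1), and none of 5 carnitine supply genes passed. In peroxisomal oxidation 2 of 13 fell and none rose. In storage of triglyceride 2 of 15 fell and 4 rose. Of 16 other regulators 3 fell and 2 rose, of 14 other mitochondrial acyl-CoA genes 1 fell and 2 rose, and of 8 other genes of uptake 1 fell and 3 rose. Of 11 other genes of activation and thioesterases 1 fell and 1 rose, of 8 genes of fatty acid synthesis 2 fell (Scd1 and Scd2) and 1 rose, and of 5 other kinases and phosphatases of pyruvate dehydrogenase 2 fell. In the citric acid cycle, which takes up the acetyl-CoA that the spiral makes, 9 of 17 genes rose, 52.9% beside 16.3% of all tested genes, and none fell, with a median log2 fold change of 0.40. Sdhb (0.62) and Sdhd (0.59), subunits of succinate dehydrogenase, were called higher. The values of the citric acid cycle come from the fit that keeps the length trend. Those with the trend removed are not given here.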

How the data were processed

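Right atrial RNA-seq libraries, 4 under the control label and 6 under the Tbx5 mutant label, were analysed from 1 deposited table. Its raw read counts per gene are whole numbers as deposited. Its signal is the same count divided by a size factor, which the authors set for each library. Its remaining columns are the authors' own comparison and were not used. These deposited columns hold a log2 difference and its error, a Wald score, a p-value, an adjusted p-value and a linear fold change (a ratio). The submitters' processing notes name TopHat2 2.0.11, featureCounts, DESeq2 and the build mm10, and the gene annotation is not given in the sources used here. The labels describe both an mRNA kit and RNA freed of ribosomal RNA. The 51-base reads carry no molecular identifiers, so a floor of 3 counts, 4.23e-05% to 5.26e-05% of a library, covers counting error only.

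Counts were fitted with edgeR 4.0.16 in R 4.3.3 (filterByExpr, TMM, quasi-likelihood test, all 10 libraries, no covariate). Adjusted p-values run over the 13084 tested genes, and 95% intervals come from a standard error taken as the fitted log2 difference divided by the root of the F statistic. CPM are counts over the TMM library size. No 2 libraries of a group differed by as little as sampling noise, so each library counts as 1 replicate. The labels number the mice but say nothing of litters or cages. Deviations of same-numbered libraries correlated at r = -0.047 to 0.0358, and those of other pairs at -0.286 to 0.276. These values gave no sign of pairing by number but cannot exclude it, and no pairing was used in the main fit. The fits were tested on simulated counts.

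Alternatives were DESeq2 1.42.0, limma 3.58.1 with quantile normalization, other scalings, filters and thresholds, sex and replicate terms, removal of trends on length or GC (lowess, span 0.4), and libraries left out. The order by principal transcript and the overlap of groups under the deposited size factors were added after seeing the data. The 41 genes and all lists were chosen with earlier results of these data known. Genes were named by rule, with values by library for called members and for 12 fixed members, and from the other lists the 6 largest falls and rises among called genes. Hadha, Hadhb and other members were described after their values were seen. Coordinates are from GENCODE M21 (GRCm38), and promoters from RefSeq (GRCm38.p6).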

Additional observations from a re-analysis of the deposited data

Results flagged for a closer look

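Of 98 groups of values tested for a library far from the rest (82 of the 41 genes, 16 of marker sums), 5 were singled out, where chance at 1 in 20 gives 4.9. Acsl5 was at 35.1 CPM in control F1 and at 39.9 to 40.7 CPM in the other control libraries. Acadm was at 431 CPM in mutant M1 and at 296 to 335 CPM in the other mutant libraries. Esrra was at 106 CPM in mutant M3, the library in which Rn45s took 38.9% of the counts, and at 87.1 to 92.6 CPM in the other mutant libraries. The summed adipocyte markers were at 16.0 CPM in control M2 and at 0.627 to 2.44 CPM in the other control libraries. They were at 70.0 CPM in mutant M2 and at 0.817 to 8.06 CPM in the other mutant libraries.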

How the results depend on the processing

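Of the 41 genes, 15 kept their direction and side of the threshold in all alternatives run, among them 10 of the 17 past the adjusted p. Of 1025 fits of single genes, 25 lost and 26 gained the threshold and 35 changed sign, in 9 genes that did not pass as reported. Of these 35, only the fits of Acot13 with the length trend removed passed (adjusted p = 0.0202, and 0.048 with the block as well). The cause of these changes was not tested.

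Without a fold limit, 14 genes counted as higher and 3 as lower, and with a limit of 2-fold 1 (Fabp5) and 0, the lowest log2 fold change being -0.79, in place of 4 and 1. With the length trend removed, 6 genes fell in place of 3. Of the further genes of fatty acid handling, 15 counted as higher and 14 as lower without a fold limit, and 3 and 3 with 2-fold. With 1 library left out, 3 to 5 genes were called higher and 1 was called lower, 12 to 16 rose and 2 to 4 fell. Of the further genes, 4 to 6 were called higher and 8 to 10 lower.

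The replicate number entered as a block gave 6 genes called higher and 1 lower, 14 risen and 3 fallen. Pdk4 (0.71, adjusted p = 0.0364) and Ucp3 (1.00, adjusted p = 0.0172) then passed, and Acadl and Echs1 did not. The labels do not say that the numbers pair the libraries. A term for sex as labelled left Acads, Hadhb, Acaa2, Etfb and Etfdh short of the threshold, as in the main fit. With the sex labels of the control mice exchanged, as Xist has them, these genes rose. Adjusted p was then 0.0175, 0.0267, 0.0181, 0.0423 and 0.0373 in the same order, and 0.053 for Hadh.

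Sign changes were as follows, on the log2 scale. With the length trend removed, Acsl1 had 0.066, Acsl4 0.072, Cpt2 -0.015, Acot13 -0.24, Acacb 0.018 and Esrra -0.056. With the block as well, they had 0.091, 0.068, -0.026, -0.27, 0.068 and -0.069, and Cpt1a had 0.076. With the block alone, Cpt1a had 0.026 and Acot13 -0.065. With the GC trend removed, Cd36 had 0.068, Acsl4 0.049 and Acot13 -0.0098. Upper-quartile scaling gave Cd36 0.0058. Without both libraries numbered M2, Cd36 had 0.0077, Acsl4 0.0091, Cpt1a 0.037 and Acot13 -0.025. With 1 library left out, Cd36 ran from -0.11 to 0.042, Cpt1a from -0.21 to 0.073, Acot13 from -0.041 to 0.072, Ppara from -0.19 to 0.03 and Esrra from -0.012 to 0.13. At 12 to 222 reads per library, Ucp3 and Fabp5 were the members with the fewest reads beside Acsl3 and Cpt1b.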
